A study of Mus musculus with 2 samples.

Results

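The 6 genes described here encode cyclin-dependent kinase inhibitors: Cdkn2a, Cdkn2b and Cdkn2c of the INK4 class, and Cdkn1a, Cdkn1b and Cdkn1c of the CIP/KIP class. They were taken by name, not by their values, from the 32286 features of the deposited matrices, and all 6 had UMIs (counted molecules) in both libraries. Cdkn2d, the remaining INK4 gene, is given beside them. Skin epidermal cells of mice of 2 genotypes were profiled by droplet 3′ single-cell RNA-seq, with 1 library per genotype, in a series that asked what Survivin does in the formation of basal cell carcinoma. The Survivin GOF mice were Involucrin-CREER/Rosa-SmoM2/Krt14rtTA/Survivin GOF, and the control mice were Involucrin-CREER/Rosa-SmoM2. Both genotypes therefore carried SmoM2, an always-on mutant of the membrane protein Smoothened, which passes on the hedgehog signal. It was fused to YFP and switched on by an inducible Cre under the involucrin promoter, which is active in committed keratinocytes. The GOF mice also carried Krt14rtTA, a doxycycline-dependent activator expressed from the Krt14 promoter of basal keratinocytes, and a gain-of-function allele of Survivin, the product of Birc5. Cells of both genotypes were sorted as α6 integrin high, CD34 negative and YFP positive, and GOF cells also for a fluorescent Survivin fusion. The number, age and sex of the mice and the times of induction are not given in the sources used here, and skin without SmoM2 was not analysed here.

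The INK4 proteins bind CDK4 and CDK6 and keep them from pairing with D-type cyclins, which leaves the retinoblastoma protein able to hold E2F factors in check. The CIP/KIP proteins bind cyclin-CDK complexes more broadly and above all inhibit cyclin E-CDK2 and cyclin A-CDK2. In epidermis, p21 (Cdkn1a) is known for its rise as keratinocytes leave the basal layer, while p16 and p19ARF, both encoded by Cdkn2a, are kept silent in normal basal cells by Polycomb proteins and are induced by oncogenic stress.

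Cells with at least 1500 genes and at most 10% mitochondrial UMIs were kept, which left 6922 of 11438 barcodes in the GOF library and 10993 of 24844 in the control library, where the labels give 8046 cells. The kept cells held 113294993 UMIs in the GOF library and 109148304 UMIs in the control library, with medians of 12652 and 7717 UMIs per cell in GOF and control cells. Birc5 stood at 781 CPM (a gene's UMIs per 1000000 UMIs of the population) in GOF keratinocytes, against 56.2 CPM in control keratinocytes, a 13.9-fold difference. The libraries also differed in the sex of the animals: by Xist and 4 Y-linked genes, 3785 GOF keratinocytes were called female and 1870 male, against 30 female and 7902 male in control. The GOF library thus held cells of at least 1 male and 1 female, and the control library was almost all male. Of 25 clusters, numbers 22, 23 and 24 were over 95% control cells and numbers 6 and 20 over 95% GOF cells, and 22 kept barcodes occurred in both libraries. With 1 library per genotype there is no replicate check and no test of genotype, and every interval below is an exact 95% interval that covers counting error only.

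Keratinocytes numbered 6725 in GOF and 10819 in control, after a melanocyte-like and a Langerhans-like cluster were left out. The marker lists used to leave clusters out did not include fibroblasts. Cluster 22 (15 GOF and 1805 control cells, 16.7% of control keratinocytes) was therefore kept, with 3 fibroblast markers among its 10 leading genes. The hedgehog-high class was made of clusters 7, 8, 10 and 12, in which the summed level of 4 hedgehog target genes, Gli1 among them, was at least 2 times the 259.3 CPM of all keratinocytes. It held 1498 GOF cells and 2871 control cells, with 812 and 785 CPM of these targets in GOF and control, against 49.0 and 109 CPM in the GOF and control cells of the hedgehog-low class. YFP transcripts followed the same split, at 29.0 CPM in GOF and 31.1 CPM in control hedgehog-high cells, against 1.31 and 6.16 CPM in GOF and control hedgehog-low cells, although all cells were sorted for YFP. Cycling cells had at least 2 UMIs of 12 mitotic genes after each cell was thinned to 3000 UMIs, and non-cycling cells had none. In hedgehog-low cells, suprabasal meant that at least 50% of the Krt1, Krt10, Krt5 and Krt14 UMIs came from Krt1 and Krt10, and basal at most 10%. Both classes were drawn from cells sorted as α6 integrin high, so they describe only cells that passed that sort. These classes are ranges and not types: 211 GOF and 890 control cells had exactly 2 mitotic UMIs, 894 GOF and 2127 control cells had exactly 1 and were put in neither class, and 730 GOF and 3046 control cells lay between the keratin limits.

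Cdkn2a and Cdkn2b lie side by side on mouse chromosome 4 and are both read from the minus strand (mm10, GENCODE vM21). Cdkn2a spans chr4:89274471-89294653 and Cdkn2b chr4:89306299-89311039, with 11645 bp between them. Cdkn2a has an upstream start, which gives p19ARF, and a downstream start, which gives p16, and both transcripts share the second exon (89276645 to 89276985) and most of the last exon, which starts at 89274774 in both and ends at 89274471 and 89274541. Counts per gene from 3′ ends therefore cannot say which of the 2 products a Cdkn2a UMI belongs to. Of these products only p16 is an INK4 protein. The term INK4 pair below names the genes Cdkn2a and Cdkn2b and does not say that p16 was the product. The starts of both genes are shown because Cdkn2a and Cdkn2b carried the main pattern below and each start has its own sequence. They are RefSeq promoters on GRCm38.p6, from 250 bases before to 50 after each start, written 5′ to 3′ on the minus strand. Capitals mark a match to an E2F motif.
Cdkn2a upstream start (p19ARF), chr4:89294570-89294869: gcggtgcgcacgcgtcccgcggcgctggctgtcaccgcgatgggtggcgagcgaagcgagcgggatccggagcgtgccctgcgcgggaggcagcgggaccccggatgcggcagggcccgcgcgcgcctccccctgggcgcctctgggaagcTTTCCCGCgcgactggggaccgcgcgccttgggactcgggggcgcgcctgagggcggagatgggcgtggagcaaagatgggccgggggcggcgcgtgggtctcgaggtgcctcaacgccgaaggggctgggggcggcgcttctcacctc
Cdkn2a downstream start (p16), chr4:89282143-89282442: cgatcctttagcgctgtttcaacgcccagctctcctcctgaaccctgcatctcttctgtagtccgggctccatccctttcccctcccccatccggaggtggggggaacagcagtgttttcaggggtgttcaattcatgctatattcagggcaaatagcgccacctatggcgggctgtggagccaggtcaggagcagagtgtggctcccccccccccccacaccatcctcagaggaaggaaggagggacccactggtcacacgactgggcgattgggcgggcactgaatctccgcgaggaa
Cdkn2b start, chr4:89310983-89311282: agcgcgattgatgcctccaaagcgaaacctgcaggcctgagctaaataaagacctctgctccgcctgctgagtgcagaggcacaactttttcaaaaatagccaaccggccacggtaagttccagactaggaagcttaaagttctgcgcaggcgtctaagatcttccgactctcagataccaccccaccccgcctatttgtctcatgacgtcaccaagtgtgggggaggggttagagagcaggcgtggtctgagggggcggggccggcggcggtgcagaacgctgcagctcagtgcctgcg
The E2F search used the letters TTTCCCGC, TTTGGCGC, TTTCGCGC and TTTGCCGC on both strands, and the p19ARF start held 1 match, 99 bases before the start. A match occurred in 744 of 32851 promoters of the same length, or 2.265%. The GLI search used GACCACCCA on both strands and found none in the 3 sequences, against 83 of 32851 promoters, or 0.2527%. GC content was 77.0% at the p19ARF start, 60.3% at the p16 start and 57.7% at the Cdkn2b start, with 45, 12 and 18 CpG pairs in that order of starts.

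Most Cdkn2a UMIs were in hedgehog-high cells, 654 of 769 in GOF and 244 of 324 in control keratinocytes, and within these cells the level was higher in GOF. In the GOF library it stood at 24.6 CPM (22.8 to 26.6) in hedgehog-high cells and 1.39 CPM (1.15 to 1.67) in hedgehog-low cells. In the control library it stood at 8.79 CPM (7.73 to 9.97) in hedgehog-high cells and 1.01 CPM (0.799 to 1.254) in hedgehog-low cells. The ratio of hedgehog-high to hedgehog-low was 17.7 (14.5 to 21.7) in GOF and 8.73 (6.75 to 11.4) in control. The intervals of the classes were thus far apart in each library. The size of the ratio depended on the cells and settings used. Over 9 settings its log2 ran from 3.777 to 4.689 in GOF and from 2.772 to 4.363 in control. These ranges overlap, so the libraries are not ranked by this ratio. In control, 53 of the 80 hedgehog-low UMIs came from cluster 22, which held almost only control cells. After thinning to 3000 UMIs, a Cdkn2a UMI was seen in 5.42% of GOF and 1.92% of control hedgehog-high cells, against 0.402% of GOF and 0.278% of control hedgehog-low cells. Without thinning, these shares were 21.5% and 5.61% of GOF and control hedgehog-high cells, against 1.68% and 0.931% of GOF and control hedgehog-low cells, at median depths of 14780, 8059, 12193 and 7598 UMIs.

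**Figure D1:**
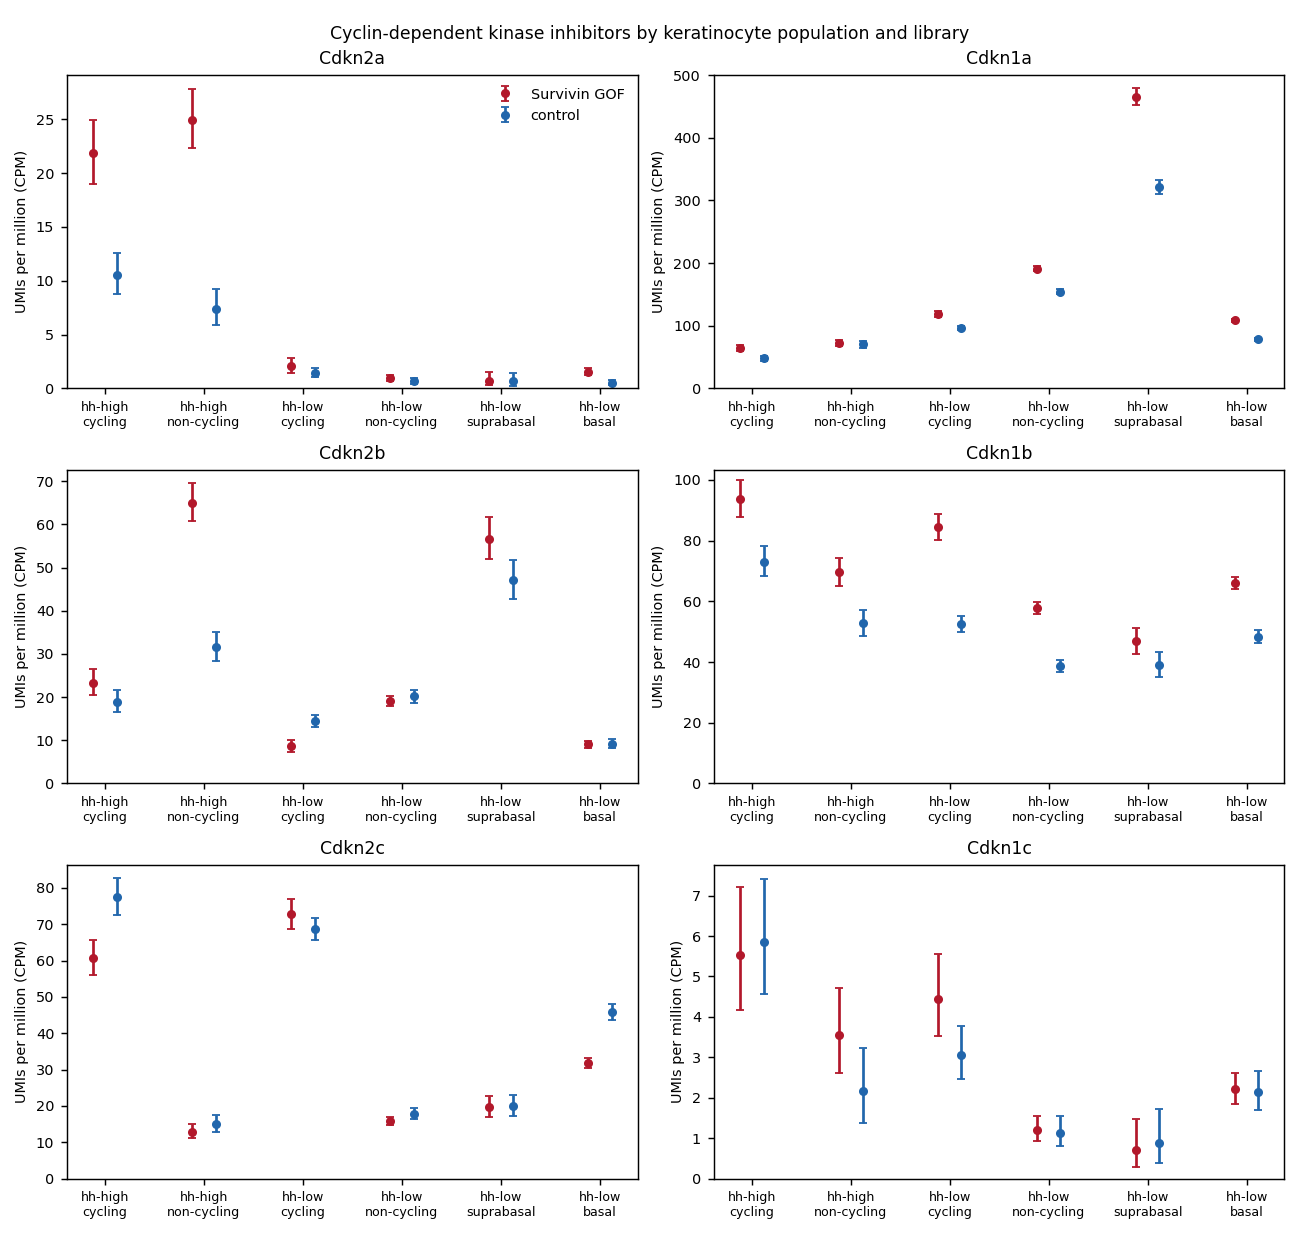
Level of each of the 6 inhibitors (y axis, CPM, from 0) in 6 keratinocyte populations (x axis, hh for hedgehog) of the Survivin GOF library (red) and the control library (blue), with exact 95% Poisson intervals for counting error as bars. Cdkn2a is high in the hedgehog-high populations (21.9 and 25.0 CPM in cycling and non-cycling GOF cells) and Cdkn1a in the suprabasal ones (466 CPM in GOF, 321 CPM in control).

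All 4 hedgehog-high clusters had a higher Cdkn2a level in GOF, and they differed among themselves. Cluster 12, led by Cilp, Col14a1 and Basp1, had 33.9 CPM (30.4 to 37.7) in GOF and 10.7 CPM (8.40 to 13.4) in control. Cluster 7, led by Ccer2 and Shisal2b, had 24.6 CPM in GOF and 12.8 CPM in control. Cluster 10, the cycling hedgehog-high cluster, had 19.5 CPM in GOF and 11.3 CPM in control. Cluster 8, led by Dio2 and Nptx1, was the low one, at 8.13 CPM (5.26 to 12) in GOF and 0.867 CPM (0.318 to 1.89) in control. In control, the intervals of clusters 7, 10 and 12 overlapped, and cluster 8 lay at the level of the hedgehog-low clusters. Over 18 clusters with at least 50 cells in each library, clusters 7, 10 and 12 were the 3 highest in both. The lowest, with 0 UMIs, were clusters 5 (basal-like) and 13 (tail scale-like) in GOF and clusters 3, 9 and 18 in control. Their intervals reached 5.48 CPM in cluster 5 and 2.80 CPM or less in the others.

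Some hedgehog-low UMIs of Cdkn2a came from clusters that 1 library held nearly alone. Cluster 20, with 66 GOF cells and led by interferon-response genes such as Iigp1 and Gbp2, had 32 of the 115 Cdkn2a UMIs of the GOF hedgehog-low cells, at 27.9 CPM (19.1 to 39.4). Its 4 hedgehog targets summed to 381 CPM in GOF, under the limit of 518.5 CPM for the hedgehog-high class. Cluster 22, with 1805 control cells and collagen genes among its leading ones, had 53 of the 80 Cdkn2a UMIs of the control hedgehog-low cells, at 2.62 CPM. Without the clusters over 95% of 1 library, the log2 GOF over control ratio of Cdkn2a in hedgehog-low cells was 1.34, against 0.47 with them.

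Cdkn2b, which encodes p15, had a second site of expression outside the hedgehog-high class. In hedgehog-high cells it stood at 47.2 CPM (44.6 to 49.9) in GOF and 25.9 CPM (24.02 to 27.8) in control. In hedgehog-low suprabasal cells it stood at 56.7 CPM (52.1 to 61.6) in GOF and 47.1 CPM (42.8 to 51.8) in control, and in hedgehog-low basal cells at 9.06 CPM in GOF and 9.22 CPM in control. Suprabasal over basal, the ratio was 6.26 (5.54 to 7.06) in GOF and 5.11 (4.43 to 5.90) in control. The order of clusters showed both sites: clusters 7, 13, 12 and 0 were the 4 highest in GOF, at 74.1, 67.5, 63.9 and 60.8 CPM, and clusters 13, 0, 7 and 12 in control, at 65.9, 50.1, 44.95 and 41.2 CPM. Cluster 0 was suprabasal-like by 8 of 9 markers and cluster 13 tail scale-like by 4 of 5. Among these 4 the intervals of neighbours overlapped, except that cluster 13 lay above cluster 0 in control. The sebaceous-like cluster 19 was the lowest, at 3.35 CPM in GOF and 1.57 CPM in control.

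Within the hedgehog-high class, cells with Cdkn2a more often had Cdkn2b as well. After thinning, 25 of 81 GOF cells with a Cdkn2a UMI also had a Cdkn2b UMI, or 30.9% (21.1 to 42.1), against 10.3% (8.79 to 12.04) of 1413 GOF cells without Cdkn2a. In control the shares were 18.5% (9.26 to 31.4) of 54 cells with Cdkn2a and 5.73% (4.89 to 6.67) of 2756 cells without it. Within 1 sex call of GOF the gap was smaller and the intervals overlapped: 32.5% (18.6 to 49.1) with and 16.1% (12.3 to 20.4) without Cdkn2a in male-called cells, and 15.4% (4.36 to 34.9) with and 7.84% (6.11 to 9.87) without it in female-called cells. In male-called control cells the shares were 25% (12.7 to 41.2) with and 5.91% (4.94 to 6.995) without Cdkn2a. Cells with and without Cdkn2a had median depths of 15292 and 14741 UMIs in GOF and 8662 and 8160 UMIs in control. Both genes also differed by cluster. In control clusters 8, 10, 12 and 7, Cdkn2a stood at 0.867, 11.3, 10.7 and 12.8 CPM and Cdkn2b at 10.55, 16.2, 41.2 and 44.95 CPM. These shares were not split by cluster, and the part of the cluster mix was not tested. Cdkn2a UMIs were also gathered in few GOF cells: 29 of 1498 hedgehog-high cells had 5 or more and held 33.8% of the 654 UMIs, and the highest cell had 16. In control, 4 of 2871 cells had 5 or more and held 14.3% of 244 UMIs. These counts were not thinned, and hedgehog-high cells had median depths of 14780 UMIs in GOF and 8059 UMIs in control. The limit of 5 was thus easier to reach in GOF.

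**Figure D2:**
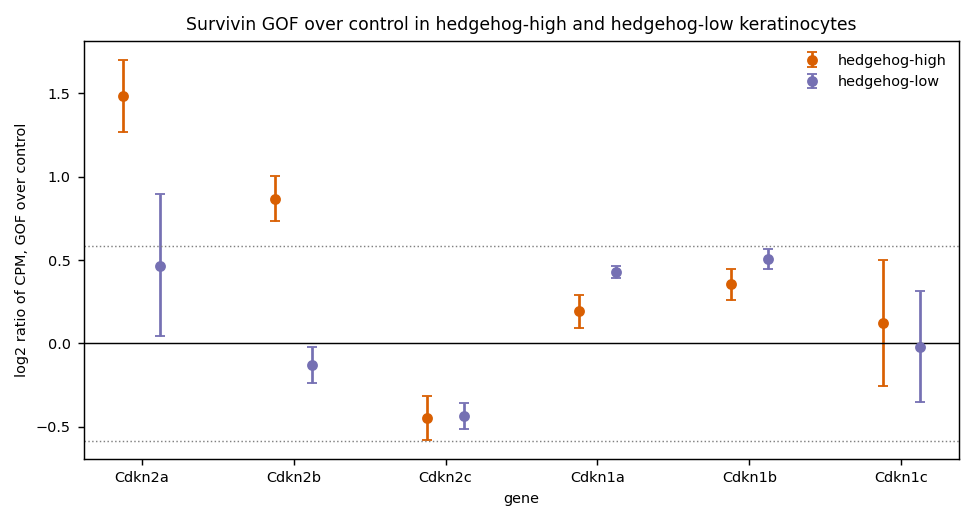
Log2 ratio of CPM, Survivin GOF over control (y axis), for each of the 6 inhibitors (x axis) in hedgehog-high cells (orange) and hedgehog-low cells (purple), with exact 95% intervals for counting error as bars and dotted lines at 1.5-fold. Cdkn2a (1.48) and Cdkn2b (0.87) lie above the upper line in hedgehog-high cells, while Cdkn2c lies below 0 in both classes (-0.45 and -0.44).

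Set against control, hedgehog-high GOF cells were 2.80-fold higher (2.41 to 3.25) in Cdkn2a and 1.82-fold higher (1.66 to 2.002) in Cdkn2b, and the other 4 members lay within 1.5-fold. So 2 of 6 members were at least 1.5-fold higher, where 5.61% of 12862 genes were, and 0 were as much lower, where 5.46% were. Neither call held for female-called GOF cells alone: with female-called GOF cells against all control cells 0 members were that much higher, at log2 ratios of 0.47 for Cdkn2a and 0.42 for Cdkn2b. With male-called cells of both libraries 2 members were also lower, Cdkn2c at 0.545 (0.455 to 0.648) and Cdkn1c at 0.535 (0.282 to 0.942). In hedgehog-low cells 0 members were past 1.5-fold in either direction, against 6.68% of 14020 genes higher and 6.68% lower. With male-called cells of both libraries 3 were lower there, Cdkn2a at 0.647 (0.342 to 1.15), Cdkn2b at 0.650 (0.569 to 0.742) and Cdkn2c at 0.665 (0.609 to 0.726). Cdkn2b had a ratio of 0.914 (0.848 to 0.985) there, and Cdkn2a 1.38 (1.03 to 1.86). Over all keratinocytes 1 member, Cdkn2a, was at least 1.5-fold higher, at 7.04 CPM in GOF and 3.03 CPM in control (2.33-fold, 2.04 to 2.66), and 0 were lower, against 6.65% of 14711 genes higher and 5.6% lower. The median log2 ratio of the members was 0.27 in hedgehog-high cells and 0.20 in hedgehog-low cells, and that of all genes counted 0.07 and 0.08.

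Among GOF hedgehog-high cells the INK4 pair was highest in the male-called ones. Cdkn2a stood at 47.0 CPM (41.9 to 52.6) in 376 male-called GOF cells, at 12.2 CPM (10.5 to 14.1) in 871 female-called GOF cells and at 8.21 CPM (7.09 to 9.47) in 2185 male-called control cells. Male-called GOF cells were thus 3.85-fold higher (3.19 to 4.65) than female-called GOF cells from the same library, and 5.73-fold higher (4.76 to 6.90) than male-called control cells. Female-called GOF cells were 1.49-fold higher (1.21 to 1.83) than male-called control cells. For Cdkn2b the levels were 71.2 CPM in male-called GOF, 34.6 CPM in female-called GOF and 27.2 CPM in male-called control cells. Cells with neither call had 32.6 CPM of Cdkn2a in GOF (251 cells) and 11.8 CPM in control (679 cells). Since male-called and female-called cells come from different animals, animal and sex cannot be told apart.

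The split by sex call held within clusters 7, 10 and 12 and was not seen in cluster 8, which had 35 male-called GOF cells. In cluster 12, Cdkn2a stood at 64.7 CPM in male-called GOF, 13.4 CPM in female-called GOF and 9.70 CPM in male-called control cells. In cluster 7 the levels were 45.3, 10.0 and 14.3 CPM in the same order, and in cluster 10 they were 30.5, 13.5 and 9.33 CPM. In cluster 8 none of 35 male-called GOF cells had a UMI, with an interval of 0 to 10.4 CPM. There, 161 female-called GOF cells stood at 9.55 CPM (5.985 to 14.5) and 697 male-called control cells at 0.721 CPM. The male-called over female-called GOF ratio in cluster 8 had an interval of 0 to 1.18. That interval holds 1 and lies below the ratios of 4.52, 2.25 and 4.84 in clusters 7, 10 and 12. Without thinning, cells with 5 or more Cdkn2a UMIs were 20 of 376 male-called and 2 of 871 female-called GOF hedgehog-high cells, and 3 of 2185 male-called control cells. Their median depths were 14132, 14586 and 9030 UMIs for all cells of these 3 groups. In hedgehog-low cells the order was turned round, at 0.625 CPM in male-called and 1.65 CPM in female-called GOF cells for Cdkn2a, and at 11.7 CPM and 18.8 CPM for Cdkn2b.

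**Figure D3:**
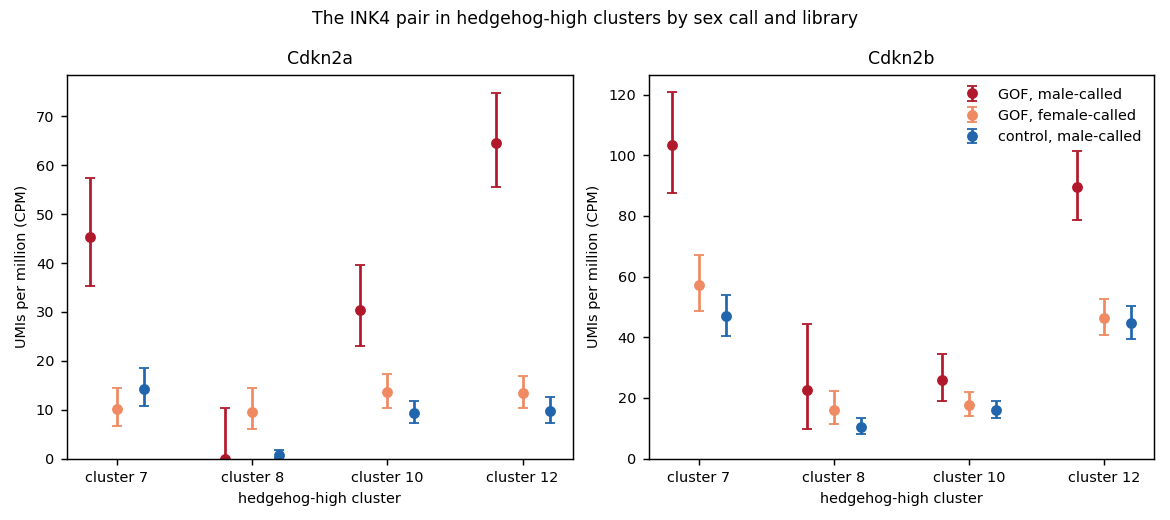
Cdkn2a (left) and Cdkn2b (right) in CPM (y axes, from 0) in the 4 hedgehog-high clusters (x axis), for male-called GOF cells (dark red), female-called GOF cells (light red) and male-called control cells (blue), with exact 95% Poisson intervals for counting error as bars. In clusters 7, 10 and 12 the male-called GOF cells lie above both other groups for Cdkn2a, while in cluster 8 they have 0 UMIs in 35 cells.

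Several other measures differed among male-called GOF, female-called GOF and male-called control cells, not all in the order of Cdkn2a. Their part in the result was not tested. The hedgehog targets summed to 865 CPM in male-called GOF, 817 CPM in female-called GOF and 784 CPM in male-called control hedgehog-high cells, and Birc5 stood at 957, 920 and 72.6 CPM in the same order. Birc5 thus differed mainly between the libraries. Of other cell types, 8 Langerhans and antigen-presenting cell markers summed to 72.8, 50.3 and 37.3 CPM in that order, and to 107.8, 70.4 and 59.9 CPM in cluster 12. In hedgehog-high cells the 6 fibroblast markers described below summed to 2046, 2655 and 1313 CPM in that order, highest in female-called GOF cells. The 12 mitotic genes summed to 1082, 1539 and 1644 CPM, and cycling cells made up 25.8%, 31.1% and 39.0%. Cdkn2c, which follows the mitotic genes below, was lower in male-called GOF cells, at 22.96 CPM, against 35.5 CPM in female-called GOF and 42.1 CPM in male-called control cells.

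Of 6 fibroblast markers, 1 was abundant in the hedgehog-high class. The list summed to 2399 CPM in GOF and 1323 CPM in control hedgehog-high cells, against 119 CPM in GOF and 234 CPM in control hedgehog-low cells, and Dcn alone gave 2386 CPM in GOF and 1302 CPM in control hedgehog-high cells. Pdgfra had 1 UMI in each library there, Col1a2 stood at 10.98 CPM in GOF and 19.3 CPM in control, and Col1a1, Col3a1 and Lum were each under 1 CPM. In hedgehog-high cells with no UMI of the list at 3000 UMIs, Cdkn2a stood at 20.5 CPM (16.3 to 25.4) in 247 GOF cells and 9.38 CPM (7.54 to 11.5) in 949 control cells.

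Within the hedgehog-high class of GOF, Cdkn2b was highest in the cells with the most hedgehog output, and Cdkn2a had its highest value there, with an interval that overlapped the next. Non-cycling hedgehog-high cells were grouped by their UMIs of the 4 targets at 3000 UMIs. In GOF, Cdkn2a stood at 18.0, 18.8, 20.5 and 30.3 CPM in cells with 0, 1, 2 and 3 or more target UMIs, and Cdkn2b at 49.1, 50.6, 42.7 and 81.2 CPM. All male-called hedgehog-high GOF cells, in which both genes were high, had a mean of 2.68 target UMIs, against 2.34 in female-called GOF cells. In control, Cdkn2a stood at 8.73, 5.50, 9.59 and 6.69 CPM, with overlapping intervals, and Cdkn2b at 21.8, 22.8, 41.9 and 35.1 CPM. Cdkn1a ran the other way in both libraries, at 133, 83.2, 75.9 and 50.5 CPM in GOF and 100.4, 80.1, 64.3 and 53.7 CPM in control. These groups pool clusters that differ in both measures. Over all GOF cells of clusters 7, 12, 10 and 8 the targets summed to 960, 901, 656 and 685 CPM. Cdkn2b stood at 74.1, 63.9, 21.4 and 15.9 CPM in that order of clusters. The groups were not split by cluster, and the part of the cluster mix was not tested.

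By cell cycle, Cdkn2b was lower and Cdkn2a higher in cycling keratinocytes. Cdkn2b stood at 14.0 CPM in cycling and 28.1 CPM in non-cycling GOF cells (ratio 0.497, 0.445 to 0.555), and at 15.7 CPM in cycling and 22.97 CPM in non-cycling control cells (ratio 0.685, 0.621 to 0.756). Cdkn2a stood at 9.21 CPM in cycling and 5.70 CPM in non-cycling GOF cells, and at 4.03 CPM in cycling and 2.28 CPM in non-cycling control cells. Hedgehog-high cells were more often cycling, at 29.6% of GOF and 38.9% of control cells, against 16.0% of GOF and 33.7% of control hedgehog-low cells. Within GOF hedgehog-high cells the Cdkn2a order did not hold, with 21.9 CPM in cycling and 25.0 CPM in non-cycling cells, intervals overlapping. Within control hedgehog-high cells the levels were 10.6 CPM (8.78 to 12.6) in cycling and 7.41 CPM (5.89 to 9.20) in non-cycling cells, with intervals overlapping as well.

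Cdkn2c, which encodes p18 (chr4:109660876-109667189, minus strand), was the inhibitor of dividing cells. It stood at 68.4 CPM (65.3 to 71.6) in cycling and 15.3 CPM (14.3 to 16.2) in non-cycling GOF keratinocytes, and at 71.2 CPM (68.6 to 73.8) in cycling and 17.2 CPM (16.0 to 18.4) in non-cycling control keratinocytes. The ratios were 4.48 (4.15 to 4.84) in GOF and 4.14 (3.83 to 4.48) in control. Its highest clusters in both libraries were the cycling clusters 14, 15 and 10, led by cluster 14 at 100.2 CPM in GOF and 154 CPM in control, in which 13 of 14 S-phase markers were raised. The bulge-like cluster 17 was its lowest in both, at 5.88 CPM in GOF and 8.35 CPM in control. Cells with 0 mitotic UMIs but at least 4 S-phase UMIs lay between, at 21.6 CPM in GOF and 24.2 CPM in control. Cdkn2d, which encodes p19INK4d, was likewise higher in cycling cells, with 93.4 CPM in cycling and 14.2 CPM in non-cycling GOF cells and 85.6 CPM in cycling and 16.5 CPM in non-cycling control cells.

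Over all keratinocytes Cdkn2c was lower in GOF, at 29.2 CPM against 39.7 CPM in control (ratio 0.736, 0.703 to 0.771). The share of cycling cells was also lower in GOF, at 19.03% (18.1 to 19.99) against 35.1% (34.2 to 36.0) of thinned control cells. Most of that gap lay in clusters held almost by 1 library: cluster 22 had 1237 cycling cells of 1802 in control, and without clusters 6, 20, 22, 23 and 24 the shares were 23.7% (22.5 to 24.9) in GOF and 27.7% (26.8 to 28.7) in control, a split chosen after the values were seen. Without those clusters the log2 ratio of Cdkn2c was -0.31, against -0.44 with them. Without thinning the shares were 36.6% in GOF and 52.9% in control, and among thinned suprabasal cells 4.09% in GOF and 10.4% in control. Among cycling cells alone the Cdkn2c levels of 68.4 CPM in GOF and 71.2 CPM in control had overlapping intervals, as had those of non-cycling cells, 15.3 and 17.2 CPM in GOF and control. The intervals were apart in cycling hedgehog-low basal cells, at 76.5 CPM in GOF and 96.6 CPM in control, in cycling hedgehog-high cells, at 60.7 CPM in GOF and 77.6 CPM in control, and in cluster 14. Over 15 clusters with enough UMIs, Cdkn2c was lower in GOF in 11 and higher in 4, with ratios of 0.618 to 1.37. Cdkn2d was lower in GOF in 12 of 16 clusters.

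Counted against all genes, 3 members were at least 1.5-fold higher in cycling than in non-cycling cells in each library. In GOF these were Cdkn2a, Cdkn2c and Cdkn1c, and 2 members, Cdkn2b and Cdkn1a, were as much lower, where 10.1% of 13446 genes were higher and 7.87% lower. In control the same 3 were higher and 1, Cdkn1a, was lower, where 8.81% of 13282 genes were higher and 5.01% lower. The members' median log2 ratio was 0.62 in GOF and 0.65 in control, against 0.04 and 0.04 for all genes.

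Cdkn1a, which encodes p21 (chr17:29090976-29100727, plus strand), was highest in the suprabasal and tail scale-like cells that passed the sort. In hedgehog-low cells of the GOF library it stood at 466 CPM (452 to 479) in suprabasal and 109 CPM (106 to 111) in basal cells. In the control library it stood at 321 CPM (310 to 333) in suprabasal and 77.9 CPM (75.1 to 80.8) in basal cells. The suprabasal over basal ratio was 4.29 (4.12 to 4.45) in GOF and 4.12 (3.91 to 4.34) in control, and after thinning a UMI was seen in 70.5% of GOF and 55.6% of control suprabasal cells, against 19.1% of GOF and 14.3% of control basal cells. Without thinning these shares were 96.2% and 82.97% of GOF and control suprabasal cells, against 46.6% and 34.8% of GOF and control basal cells. Clusters 13 and 0 were the 2 highest of 18 in both libraries, at 510.2 and 489 CPM in GOF, with overlapping intervals, and 316 and 333 CPM in control, with overlapping intervals. The basal-like cluster 5 was the lowest in both, at 46.1 CPM in GOF and 28.96 CPM in control, with cluster 12 next at 46.5 CPM in GOF and 34.3 CPM in control, intervals overlapping. Cells between the keratin limits lay between the classes, at 237 CPM in GOF and 132 CPM in control.

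Cdkn1a was low in the hedgehog-high class, the reverse of Cdkn2a. It stood at 67.4 CPM in hedgehog-high and 173 CPM in hedgehog-low GOF cells (ratio 0.391, 0.372 to 0.411), and at 59.0 CPM in hedgehog-high and 128 CPM in hedgehog-low control cells (ratio 0.460, 0.437 to 0.485). Part of that gap lay in the suprabasal cells of the hedgehog-low class: hedgehog-low basal cells alone stood at 109 CPM in GOF and 77.9 CPM in control. Cycling cells were lower than non-cycling cells, at 98.8 against 167 CPM in GOF and 82.5 against 134 CPM in control. Among hedgehog-low basal cells alone the gap was smaller, at 97.9 CPM in cycling and 113 CPM in non-cycling GOF cells and 69.8 CPM in cycling and 84.8 CPM in non-cycling control cells. Cells with 0 mitotic but at least 4 S-phase UMIs were lowest, at 54.3 CPM in GOF and 44.4 CPM in control, against 190 CPM in GOF and 151 CPM in control cells with at most 1 S-phase UMI.

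Between the libraries Cdkn1a was higher in GOF in hedgehog-low cells, at 173 CPM against 128 CPM in control (1.35-fold, 1.31 to 1.38), and less so in hedgehog-high cells (1.14-fold, 1.07 to 1.22). Of 16 keratinocyte clusters with at least 50 cells in each library it was higher in GOF in 15, with the sebaceous-like cluster 19 the exception at 206 CPM in GOF and 249 CPM in control. These clusters share the same 2 libraries and are not replicates. In hedgehog-low cells the sex calls did not split: male-called and female-called hedgehog-low GOF cells stood at 172 and 174 CPM, against 131 CPM in male-called control cells. In hedgehog-high cells they did in places, with male-called over female-called GOF ratios of 1.45 (1.18 to 1.78) in cluster 10 and 1.37 (1.10 to 1.70) in cluster 12, and female-called GOF over male-called control cells stood at 1.06 (0.978 to 1.16). In the suprabasal class the GOF over control difference was 466 against 321 CPM, and it was 469 against 324 CPM in its non-cycling cells.

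Cdkn1b, which encodes p27 (chr6:134920401-134925513, plus strand), was the most evenly spread member and was higher in GOF in nearly every cluster. It stood at 67.4 CPM (65.8 to 68.9) in GOF and 49.2 CPM (47.9 to 50.5) in control keratinocytes, a 1.37-fold difference (1.32 to 1.42). The ratio was 1.28 (1.20 to 1.36) in hedgehog-high and 1.42 (1.36 to 1.48) in hedgehog-low cells. It was higher in GOF in 15 of 16 clusters, with ratios of 0.983 (cluster 9) to 1.86, the largest being in the sebaceous-like cluster 19 at 58.5 CPM in GOF and 31.4 CPM in control. In hedgehog-low cells both sex calls of the GOF library stood alike, at 64.4 CPM in male-called and 64.7 CPM in female-called cells, against 44.6 CPM in male-called control cells. Among non-cycling hedgehog-low basal cells of GOF it stood at 69.7, 57.1 and 52.7 CPM in cells with 0, 1 or 2, and at least 3 Birc5 UMIs, against 40.6 CPM in non-cycling control basal cells of any Birc5 count. Basal cells sat in different clusters in the libraries, since basal-like cluster 6 held 1510 GOF and 24 control cells and basal-like cluster 5 held 83 GOF and 1468 control cells, so cluster and genotype cannot be told apart there. Without the clusters over 95% of 1 library the log2 ratio of Cdkn1b in hedgehog-low cells was 0.50, against 0.51 with them.

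Cdkn1b was the only member with no ratio past 1.5-fold between hedgehog, cycling or layer classes in either library. Its level was 87.8 CPM in cycling and 60.1 CPM in non-cycling GOF cells (1.46-fold), and 58.4 CPM in cycling and 42.1 CPM in non-cycling control cells (1.39-fold). It stood at 79.4 CPM in hedgehog-high and 63.5 CPM in hedgehog-low GOF cells, and at 62.1 CPM in hedgehog-high and 44.7 CPM in hedgehog-low control cells. Suprabasal cells had less than basal cells, at 46.9 against 66.0 CPM in GOF and 39.1 against 48.4 CPM in control. The bulge-like cluster 17, with 8 of 8 bulge markers detected raised, was the highest in GOF at 125 CPM (110 to 141) and stood at 72.7 CPM (55.6 to 93.4) in control, where clusters 15, 10 and 3 had higher values with overlapping intervals.

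**Figure D4:**
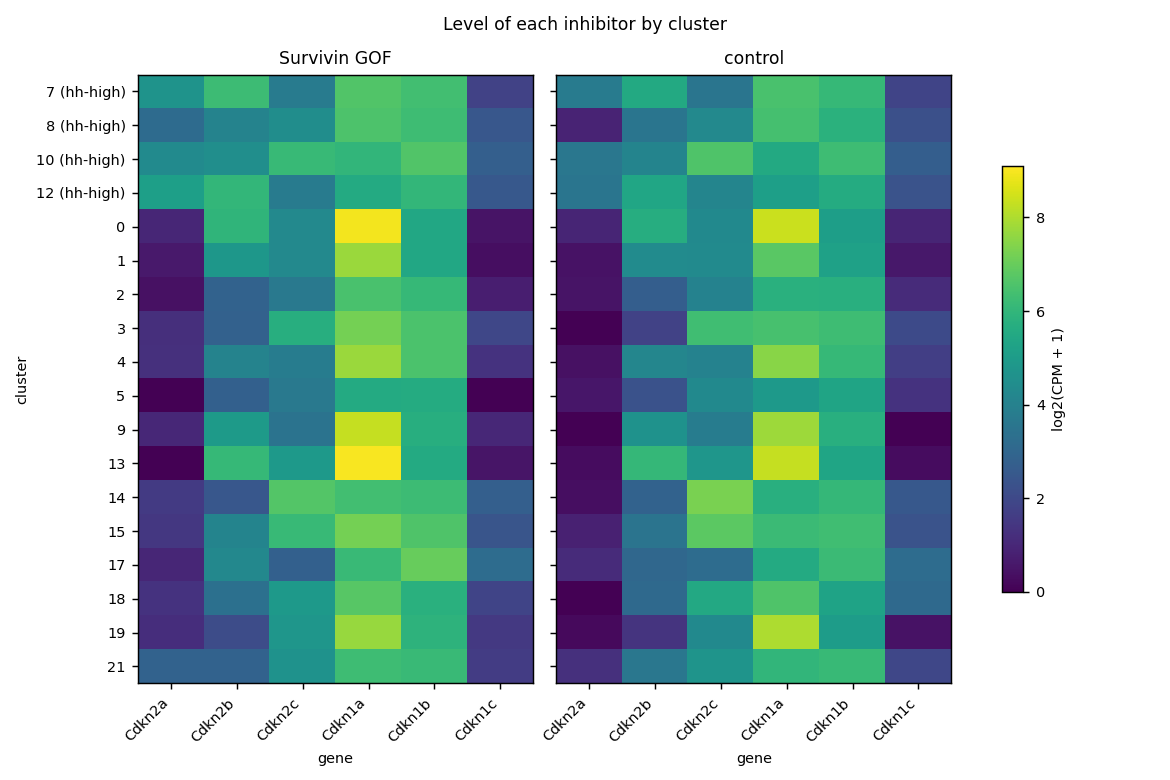
Heat map of log2(CPM + 1), from dark (0) to light, for the 6 inhibitors (columns) in 18 clusters (rows) with at least 50 cells in each library, Survivin GOF on the left and control on the right. The 4 hedgehog-high clusters are on top, and cluster 18 is melanocyte-like and cluster 21 Langerhans-like. Cdkn2a stands out in clusters 7, 10 and 12, Cdkn1a in clusters 0 and 13, and Cdkn2c in clusters 14, 15 and 10.

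Cdkn1c, which encodes p57 (chr7:143458339-143461050, minus strand) and in mouse is transcribed from the maternal allele, was rare, and its pooled level was alike in the 2 libraries. It stood at 2.55 CPM (2.26 to 2.86) in GOF and 2.51 CPM (2.22 to 2.83) in control keratinocytes, from 278 and 269 UMIs, a ratio of 1.01 (0.854 to 1.20). Among male-called keratinocytes it was lower in GOF, at 1.61 CPM (1.19 to 2.13) against 2.45 CPM (2.14 to 2.80) in control, while female-called GOF keratinocytes stood at 3.03 CPM (2.60 to 3.51). Hedgehog-high cells had more than hedgehog-low cells, at 4.59 against 1.89 CPM in GOF (2.43-fold, 1.90 to 3.10) and 4.22 against 1.92 CPM in control (2.20-fold, 1.72 to 2.82). Cycling cells had more than non-cycling cells, at 4.84 against 1.67 CPM in GOF and 3.86 against 1.38 CPM in control. The bulge-like cluster was the highest in both libraries, at 8.33 CPM (4.85 to 13.3) in GOF and 8.35 CPM (3.36 to 17.2) in control, and its interval overlapped those of the next clusters. In hedgehog-high cells it stood at 2.17 CPM in male-called GOF (14 UMIs), 5.34 CPM in female-called GOF and 4.06 CPM in male-called control cells. Suprabasal cells had 0.716 CPM in GOF and 0.871 CPM in control, from 7 and 8 UMIs. Gm44732 lies on the opposite strand over Cdkn1c, and AC167363.2 over Cdkn1a, and neither labels nor headers say whether counting used the strand, so reads of either pair may not be told apart.

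By hedgehog class, 3 of 6 members were at least 1.5-fold higher in hedgehog-high than in hedgehog-low GOF cells (Cdkn2a, Cdkn2b and Cdkn1c) and 1 was lower (Cdkn1a), where 25.2% of 13678 genes were higher and 12.2% lower. In control 2 were higher (Cdkn2a and Cdkn1c), with Cdkn2b at 1.42-fold, and 1 was lower, where 26% of 13610 genes were higher and 10.2% lower. All genes together leaned toward the hedgehog-high class, with a median log2 ratio of 0.23 in GOF and 0.26 in control. Relative to that median, the log2 ratios of 4.14 for Cdkn2a and -1.36 for Cdkn1a in GOF, and 3.13 and -1.12 in control, kept their direction, while those of Cdkn2c (0.13 in GOF and 0.14 in control) turned negative.

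By layer, 2 members were at least 1.5-fold higher in suprabasal than in basal cells in each library, Cdkn2b and Cdkn1a, where 8.19% of 12703 genes in GOF and 9.65% of 12068 in control were higher. Cdkn2a, Cdkn2c and Cdkn1c were as much lower in GOF and Cdkn2c and Cdkn1c in control, so that 3 and 2 members were lower, where 27.4% and 22.3% of genes were. Cdkn2a rested on 7 GOF and 6 control suprabasal UMIs, and the GOF interval of 0.187 to 1.03 reached past 1. The median log2 ratio of all genes was -0.21 in GOF and -0.13 in control. Among non-cycling cells Cdkn2c was past the fold in neither library, at 16.97 CPM in suprabasal and 16.1 CPM in basal GOF cells and 16.4 CPM in suprabasal and 18.03 CPM in basal control cells, with overlapping intervals.

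The proteins that these inhibitors act on or are controlled by were read from 6 lists, set against 6.65% of all genes at least 1.5-fold higher and 5.6% as much lower in GOF keratinocytes. Of 5 INK4 targets and partners, 1 was at least 1.5-fold higher in GOF keratinocytes and 0 lower: Ccnd2, which encodes cyclin D2, stood at 496 CPM in GOF and 274 CPM in control (1.81-fold), and was 1.97-fold higher in hedgehog-high cells. The median log2 ratio of the list was -0.04. Of 5 CIP/KIP targets, 2 were higher and 0 lower: Ccne1 stood at 11.1 CPM in GOF and 6.56 CPM in control, and Ccne2 at 13.4 CPM in GOF and 8.92 CPM in control, both encoding E-type cyclins, and the list's median log2 ratio was 0.05. All 5 CIP/KIP targets were at least 1.5-fold higher in cycling than in non-cycling cells and all 5 as much lower in suprabasal than in basal cells, in each library, where 10.1% of genes in GOF and 8.81% in control were higher in cycling cells and 27.4% in GOF and 22.3% in control lower in suprabasal cells. None of 8 pocket protein and E2F genes, 5 genes of p27 turnover, 8 Polycomb genes and 11 of 12 p53 pathway genes with enough UMIs passed 1.5-fold in either direction, and their median log2 ratios were 0.22, 0.25, 0.25 and 0.11 in that order, against 0.08 for all genes. Skp1a, part of the ubiquitin ligase that takes down p27, stood at 230 CPM in GOF and 162 CPM in control, and Ezh2, the Polycomb methyltransferase that silences the INK4 locus, at 108 CPM in GOF and 84.6 CPM in control. In hedgehog-high cells, where Cdkn2a was high, Ezh2 stood at 173 CPM in GOF and 138 CPM in control, above its 87.0 and 65.9 CPM in the GOF and control hedgehog-low cells. Of the 8 Polycomb genes, 2 in GOF and 4 in control were at least 1.5-fold higher in hedgehog-high cells, where 25.2% and 26% of all genes were. The list's median log2 ratio was 0.41 in GOF and 0.53 in control, against 0.23 and 0.26 for all genes. Hedgehog-high cells were also more often cycling, and the part of that was not tested.

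The genes whose levels were most like each member's were read over 36 sums, each of a cluster with at least 100 cells in 1 library, by Pearson's r on log2(CPM + 1), as a description. The sums share libraries, depth and cell types. Cdkn2a was closest to Cacna1d (0.91), Rnmt (0.90) and Cilp (0.90), and its r with its neighbour Cdkn2b was 0.43. Cdkn2b was closest to Smim5 (0.88), Nrarp (0.87) and Paip2 (0.85). Cdkn2c was closest to Ckap2 (0.94), Depdc1b (0.94) and Prc1 (0.93), genes of mitosis and the cytoskeleton, and its r with Cdkn2d was 0.87. Cdkn1a was closest to Zfp750 (0.90), a keratinocyte differentiation factor, and to Ly6g6e (0.89) and Stx19 (0.89). Cdkn1b was closest to Ppp2r5e (0.89), Vangl1 (0.89) and Stag1 (0.84), and Cdkn1c to Wdr90 (0.87), Wdr35 (0.87) and Med31 (0.87).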

How the data were processed

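The deposited files hold whole-number UMI counts per gene and cell, which the authors made using Cell Ranger 6.1.1 (per the file headers). Mm10, R 4.3.0 and Seurat 4.2.0 are named in the submitters' processing notes. Cells were kept at 1500 genes and 10% mitochondrial UMIs. Scrublet called 1 GOF and 0 control doublets, which does not count as a working call, so none were removed, and the top 6% of scores were dropped as an alternative. Each cell was thinned to 3000 UMIs (11 GOF and 92 control cells were shallower) for thinned shares and for the cycling, keratin and other per-cell groupings. Clustering used the unthinned UMIs, scaled to a common total per cell and log-transformed. It was done with scanpy 1.11.5 (2000 variable genes, 30 components, 15 neighbours, resolution 1) under Python 3.11.15. The members, Cdkn2d, Birc5, mitochondrial, ribosomal and sex genes were left out of it. Clusters were named only from marker lists, which the hedgehog and other classes also used, and names may differ from the study's. The hedgehog sum was used whole, and its genes are not each reported here. Raw UMIs were summed per library and class and given as CPM with exact Poisson intervals, shares with exact Clopper-Pearson intervals and ratios with exact conditional intervals (SciPy 1.17.1). A member was counted as higher or lower past 1.5-fold with at least 20 UMIs, and all genes with at least 50. Only the ratios, their intervals and the 1.5-fold calls were tried on simulated data, as Poisson sums of genes with many UMIs. Thinning, clustering, the classes and genes with few UMIs were not tried in that way. The members and lists were chosen with earlier results of these data known. Named genes are all members, Cdkn2d, at most 2 genes per pathway list by size of the log2 ratio with at least 100 UMIs, and the 3 most similar genes per member. Ezh2 beyond all keratinocytes and the cluster-leading genes were named after their values were seen. UMIs of 3′ ends were not scaled by length.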

Additional observations from a re-analysis of the deposited data

Results flagged for a closer look

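Cdkn2b was singled out because its Survivin GOF over control ratio lay on opposite sides of 1 in the 2 hedgehog classes. The ratio was 1.82 in hedgehog-high cells, at 47.2 CPM in GOF and 25.9 CPM in control, and 0.914 in hedgehog-low cells, at 16.6 CPM in GOF and 18.2 CPM in control. With 1 library per genotype the difference between the classes was not tested. In hedgehog-low cells the log2 ratio of -0.13 became 0.16 without the clusters that were over 95% of 1 library and -0.62 in male-called cells.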

How the results depend on the processing

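No paired analysis was possible because each genotype has 1 library and no result comes from a test. Of 186 recounts of the members past the fold, 161 stayed within 1.5 times the reported count and 25 did not. At the lower of 2 other fold thresholds, the members higher in GOF became 3 and the lower 1 over all keratinocytes, 1 was lower in hedgehog-high cells, and 3 were higher and 1 lower in hedgehog-low cells. In control 4 were then higher in hedgehog-high than in hedgehog-low cells and 2 lower in cycling than in non-cycling cells. At a fold of 2, the higher one, 1 was higher in GOF in hedgehog-high cells, and 1 in GOF and 0 in control were lower in cycling cells. Among male-called cells 2 members were lower in GOF over all keratinocytes, 2 in hedgehog-high and 3 in hedgehog-low cells. Without the clusters over 95% of 1 library 1 member was higher in hedgehog-low cells, as in non-cycling cells, where 1 was lower in control suprabasal cells. With hedgehog classes set per cell, 1 was lower in hedgehog-high and 1 higher in hedgehog-low cells, and against basal hedgehog-low control cells 0 were lower in hedgehog-high cells. With cycling set at 1 mitotic UMI, 1 was lower in GOF and 0 in control, at 4 UMIs 2 in control, and within hedgehog-high cells 1 in GOF. Of 2 alternatives chosen after seeing the data, leaving out clusters 22, 23 and 24 gave 2 lower in cycling control cells, and female-called GOF against all control cells left 0 higher in hedgehog-high cells, with log2 ratios of 0.47 for Cdkn2a and 0.42 for Cdkn2b. Of 393 recomputed log2 ratios of single members 113 moved by more than their counting error and 2 that were past the fold changed sign: Cdkn2c, suprabasal over basal in GOF, was 0.073 among non-cycling cells, and Cdkn2a, cycling over non-cycling in GOF, was -0.19 within hedgehog-high cells. The cause was not tested. Depth limits Cdkn2a and Cdkn1c in hedgehog-low classes, where values rest on few UMIs.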

Other observations

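Ccnd2 was higher in the GOF library in the class where the INK4 pair was high and in the class where it was low. In hedgehog-high cells it stood at 589.7 CPM in GOF and 299 CPM in control, and in hedgehog-low cells at 466 CPM in GOF and 265 CPM in control. Cyclin D2 is a partner of the kinases that p16, p15 and p18 bind.

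Among non-cycling hedgehog-high cells of the GOF library, the INK4 pair was lower in cells with at least 3 Birc5 UMIs than in cells with fewer. Cdkn2a stood at 28.5 CPM (23.5 to 34.3), 29.6 CPM (24.6 to 35.4) and 18.6 CPM (15.03 to 22.7) in cells with 0, 1 or 2, and at least 3 Birc5 UMIs at 3000 UMIs, and Cdkn2b at 75.4, 75.0 and 49.3 CPM. These are 270, 257 and 327 cells of 1 library, so the values describe those cells and compare no samples. The groups pool clusters and sex calls that differed in both genes, and the part of that mix was not tested.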
